A study of Bos taurus with 8 samples.

Results

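Vehicle-treated bovine choroidal endothelial (BCE) cells were compared with vehicle-treated bovine aortic endothelial (BAE) cells, 2 libraries of each and 4 of the 8 RNA-seq libraries in the series. Members were chosen by their labels, as the libraries of each cell type that received no leukemia inhibitory factor (LIF), the cytokine that the study adds to both cell types. Both cell types were bought from vendors and used at limited passage, so each stands for 1 commercial source. BCE cells had been maintained on fibronectin with 10% serum, bFGF at 5 ng/ml and VEGF at 10 ng/ml, and BAE cells with 10% serum and without either factor. Before RNA was taken the cells spent 3 h in assay medium, which held 10% serum for the choroidal cells but 1% for the aortic cells, and then 6 h with vehicle, which was albumin in buffered saline. Cell type, growth factors and serum therefore changed together and cannot be told apart in any difference given here. The other 4 libraries came from the same cell types and media with LIF at 10 ng/ml.

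The choroid is the vascular layer behind the retina, and its innermost part is a dense bed of fenestrated capillaries that feeds the photoreceptors. The aorta is lined by a continuous endothelium that faces high pressure and fast flow and takes little part in exchange. Endothelial cells of different beds are known to use different transcription factors, adhesion molecules, transporters and secreted factors, and to keep part of that pattern in culture.

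Counts summed to between 22354435 and 35269335 per library, and 15411 to 15768 features were detected in each. Levels are given as CPM, the counts of a gene relative to the scaled size of its library, and 3 counts corresponded to 0.0879 to 0.138 CPM. Gene lengths were not used, so CPM values were compared between libraries and not between genes. The count table carries Ensembl identifiers, and a symbol could be given to 111 of them. All 111 had been called by the study after LIF in BCE cells, a comparison that uses the same 2 vehicle-treated BCE libraries, so they are no random sample of the transcriptome. Their median was 60.7 CPM against 23.8 CPM for all genes tested, without regard to length. None of the 22 pan-endothelial markers listed for the purpose was among them. Neither were the markers of mural cells, of retinal pigment epithelium or of lymphatic endothelium, so the cell labels could not be checked against defining markers. Of 10 listed leukocyte markers 1 was identified, CD14, which was higher in BCE cells. A single marker cannot show whether leukocytes were present, and this was not tested. In RNA from whole cultures, fewer cells of a type and less RNA per cell cannot be told apart.

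Across the transcriptome, the cell types differed in 7223 of the 13426 genes tested (53.8%), at a threshold of 0.05 on the p of edgeR's quasi-likelihood test after Benjamini-Hochberg adjustment. The higher level was in BCE cells for 3520 genes (26.2%) and in BAE cells for 3703 (27.6%). Most differences were small. The median absolute log2 fold change was 0.32 over all genes tested and 0.64 over the genes called, and 10% of genes lay beyond 1.91. Tested against a 2-fold change with edgeR's glmTreat, 1732 genes remained (12.9%), of which 779 were higher in BCE cells (5.8%) and 953 were lower (7.1%). Both libraries of one cell type lay above both of the other in 10373 genes (77.3%).

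The share of genes that passed depended on abundance in opposite ways for the 2 tests. Among the 1231 genes with a mean under 1 CPM, 45.4% passed the first test and 25.3% the 2-fold test. Among the 2064 genes above 100 CPM, 63.2% passed the first and 8.58% the second. The median standard error of the log2 fold change fell between these classes from 0.503 to 0.0577, so small differences in abundant genes were resolved that could not have been resolved in rare ones. Transcribed units without an Ensembl identifier passed the 2-fold test in 19.5% of 1105 cases, 102 of them higher and 113 lower in BCE cells, against 12.3% of the 12321 Ensembl genes. By the first test the shares were 50.7% and 54.1%. The part of abundance in this contrast was not tested.

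**Figure D1:**
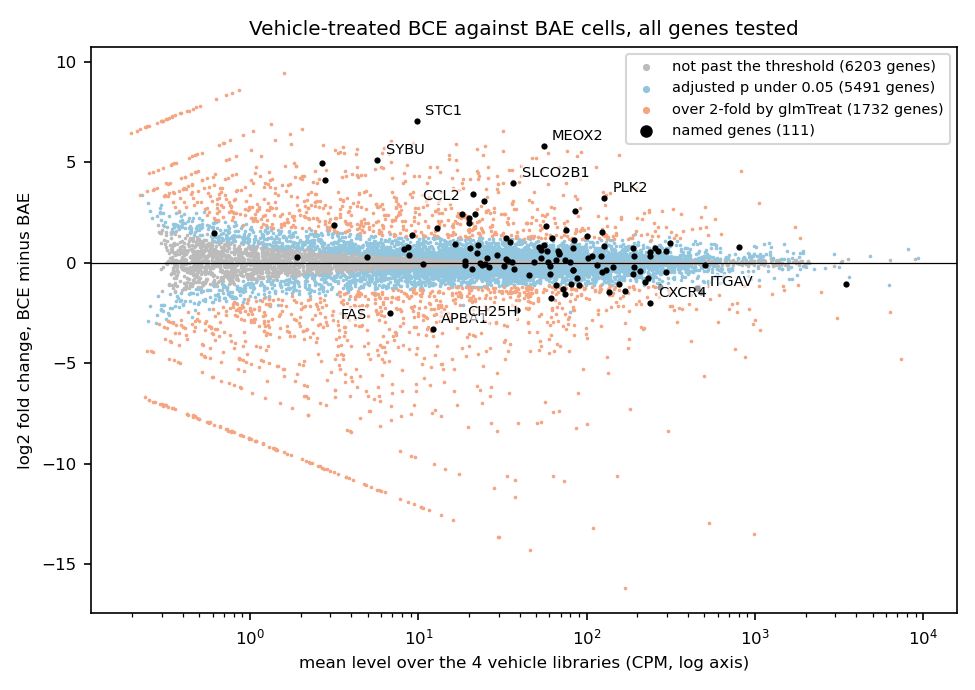
Log2 fold change of BCE minus BAE cells (vertical axis) against the mean level over the 4 vehicle-treated libraries (horizontal axis, CPM, log scale), 1 point per gene tested. Orange points are the 1732 genes past the 2-fold test, blue points the other genes past the threshold and black points the 111 named genes; the slanted lines of points at low levels are genes with 0 counts in one cell type, whose fitted values depend on the prior count.

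Very large differences were more often higher in BAE cells, though not all of them were. At 10 CPM or more in one cell type, 220 genes were over 4-fold higher in BCE cells and 307 in BAE cells, from 8872 and 8914 genes at that level. Over 16-fold the counts were 62 and 134, and over 100-fold they were 1 and 66. The single gene over 100-fold higher in BCE cells was STC1, encoding the secreted glycoprotein stanniocalcin-1, which still had 8 counts in the 2 BAE libraries together, or 0.736% of its BCE level. In BAE cells 15 genes were over 1000-fold higher. For these ratios a sum of 0 counts was set to 3 counts over the group. Genes high in BCE cells kept a few counts in the BAE libraries. A small share of reads carried over from BCE libraries would have raised such counts. It would so have lowered the numbers of genes past these ratios in BCE cells, and this was not tested.

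Genes at or near 0 counts in one cell type carry the same limit, since a few residual counts decide on which side of it a gene falls. At least 10 CPM in BAE cells with at most 3 counts in each BCE library was found for 40 genes, 20 of them with 0 counts in both, and the reverse pattern for 0 genes. With at most 10 counts allowed, a limit added after the data were seen, the numbers were 63 and 4, and at 5 CPM or more they were 108 and 16. At 1 CPM or more the 3-count limit gave 158 genes for BAE cells and 36 for BCE cells. ENSBTAG00000007687 had 11459 and 7389 counts in the BAE libraries, or 336 and 340 CPM, and 0 in both BCE libraries, so that it was at least 6044-fold higher in BAE cells against 3 counts over the group. ENSBTAG00000032183 had 213 and 222 CPM in BAE cells and 0 and 1 counts in BCE cells. Of the 40 genes, 27 met the same limits in the LIF-treated libraries as well. None of the 40 has a name here.

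**Figure D2:**
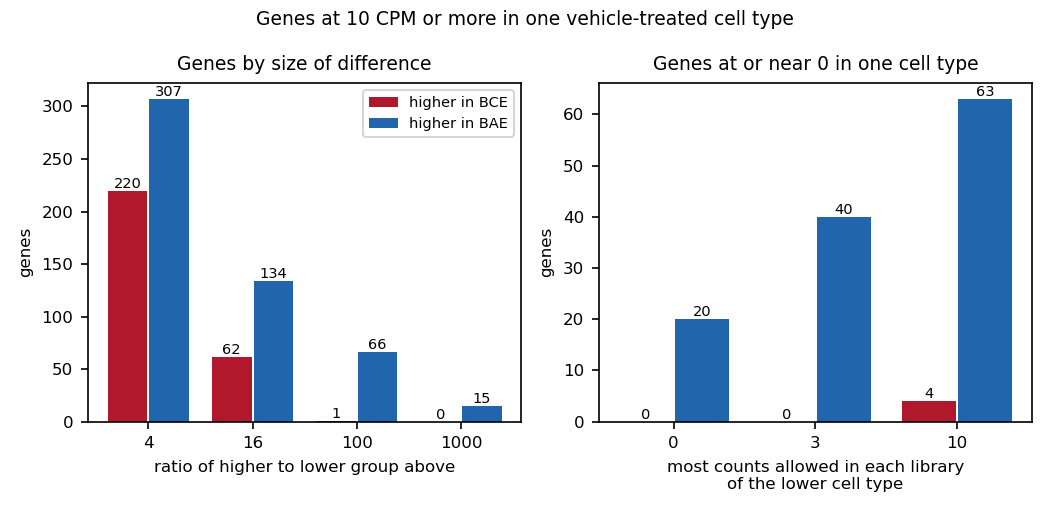
Numbers of genes at 10 CPM or more in one vehicle-treated cell type (vertical axes), by the ratio of the higher to the lower group (left) and by the most counts allowed in each library of the lower cell type (right). Red bars are genes higher in BCE cells and blue bars genes higher in BAE cells; over 100-fold there were 1 and 66 genes, and at no more than 3 counts 0 and 40.

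Of the 111 named genes, 56 were higher in BCE cells, 34 were lower and 21 did not pass. This is 81.1%, against 53.8% of all genes tested. By the 2-fold test 23 were higher and 12 were lower. The median log2 fold change was 0.29, against 0.00 over all genes tested. Values ran from 7.04 for STC1 to -3.30 for APBA1. A gene had to be expressed in BCE cells to be named, which left out genes found in BAE cells alone. The part of this choice in the median, the split of 23 to 12 and the longer range on the BCE side was not tested. These values cannot be read as a lean of the transcriptome, and they run against the 1 to 66 over all genes. The groups of named genes described next are small, and their counts stand against 53.8% past the threshold over all genes and 81.1% over the named genes.

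STC1 (ENSBTAG00000001687) is known as a hypoxia-responsive gene with roles in calcium handling and in endothelial responses. Its levels were 22.4 and 16.4 CPM in BCE cells and 0.117 and 0.184 CPM in BAE cells, which is 4 counts in each BAE library. The groups lay far apart (log2 fold change 7.04, standard error [SE] 0.287, adjusted p = 1.3e-09). MEOX2 (ENSBTAG00000003238) encodes a homeobox factor expressed in endothelium of the heart, skeletal muscle and brain. It was at 110.3 and 108 CPM in BCE cells and at 1.7 and 2.3 CPM in BAE cells. Replicates of each cell type were close to each other on this scale (log2 fold change 5.81, SE 0.115, adjusted p = 2.92e-12).

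Other large differences in the same direction covered secreted factors, transporters and regulators. SLCO2B1, an organic anion transporter, had 67.4 and 70.5 CPM in BCE cells and 4.4 and 4.46 CPM in BAE cells (log2 fold change 3.96, SE 0.0981, adjusted p = 1.85e-11). CCL2, the chemokine that draws monocytes, had 39.9 and 36.9 CPM in BCE cells and 3.98 and 3.04 CPM in BAE cells. PLK2, a stress-responsive polo-like kinase, had 227 and 231 CPM against 25.6 and 23.9 CPM, a 9.24-fold difference. None of these groups overlapped, which was a condition for naming these genes and held for 77.3% of all genes tested. LRRC32, which encodes the surface protein GARP that holds latent TGF-beta, was 8.34-fold higher in BCE cells, at 45 and 43.1 CPM against 5.27 and 5.29 CPM. IL4R, the alpha chain of the interleukin 4 receptor, was 5.94-fold higher, at 162 and 128 CPM against 22.6 and 26.5 CPM, with the wider spread in BCE cells.

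SYBU, CELF4 and GPRIN3, which are better known from neurons, gave few counts, most of them in BCE cells. SYBU, a kinesin adaptor, was at 12.6 and 9.57 CPM in BCE cells and 0.352 and 0.276 CPM in BAE cells. CELF4, an RNA-binding protein, was at 5.65 and 4.72 CPM in BCE cells and 0.117 and 0.23 CPM in BAE cells. Their log2 fold changes of 5.09 and 4.97 and that of 4.12 for GPRIN3 rest on few counts in the BAE libraries and carried standard errors of 0.261, 0.342 and 0.303. The other 5 of the 15 genes with the largest values in this direction were SOCS2, EFNA1 and ID1, given with their groups, the vitamin C transporter SLC23A2 at a log2 fold change of 1.99, and APOL3 at 2.39. The APOL3 name rests on a match within a family of close relatives, so its identity is uncertain.

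In the other direction the largest named difference was that of APBA1 (ENSBTAG00000008877), an adaptor protein known from synaptic vesicle release. It had 2.3 and 2.15 CPM in BCE cells and 21.3 and 22.9 CPM in BAE cells (log2 fold change -3.30, SE 0.134, adjusted p = 1.22e-09). FAS, the death receptor, was at 1.83 and 2.24 CPM in BCE cells and 11.5 and 11.6 CPM in BAE cells, 5.7-fold higher in the latter. CH25H, cholesterol 25-hydroxylase, stood at 15.2 and 9.53 CPM in BCE cells and 65.4 and 63.7 CPM in BAE cells. The 2 BCE libraries differed from each other for CH25H by more than the BAE libraries did, and both lay below them. CXCR4, the receptor of CXCL12 and a gene of arterial and tip endothelial cells, was 4.03-fold higher in BAE cells, with 373 and 384 CPM against 96.1 and 91.8 CPM.

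**Figure D3:**
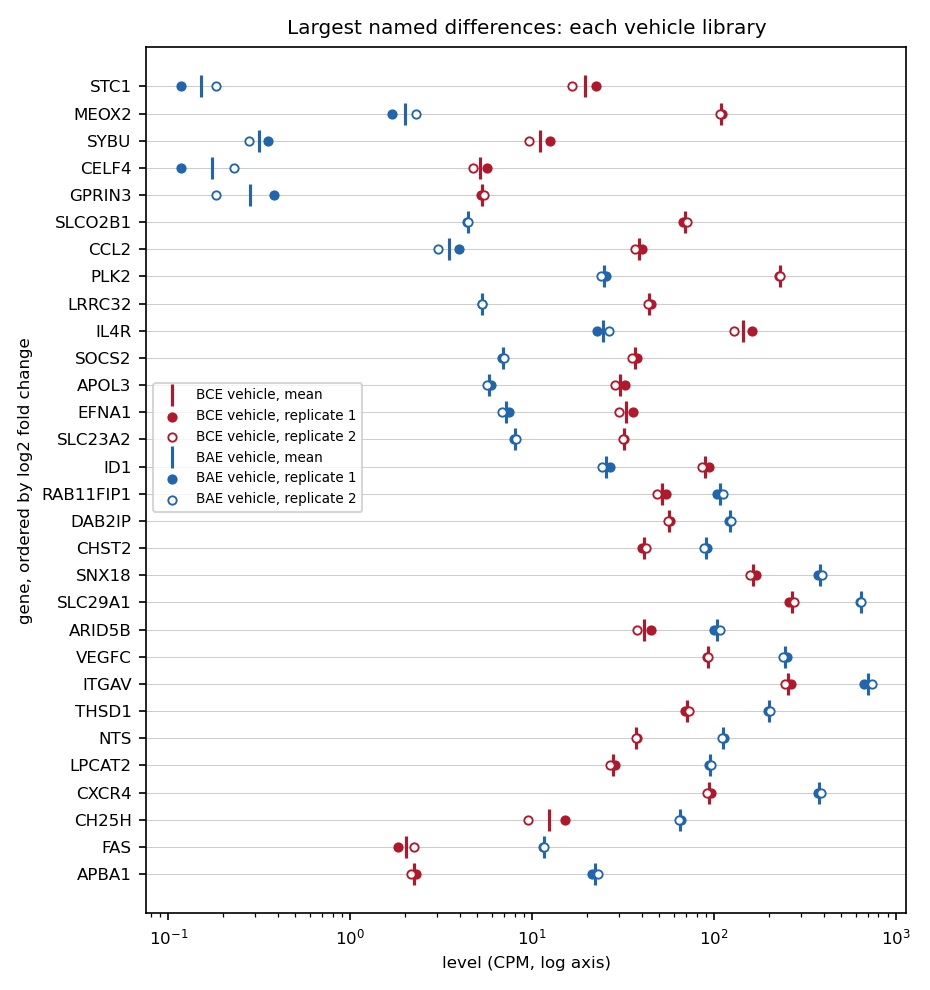
Level of the 30 named genes with the largest differences in each vehicle-treated library (horizontal axis, CPM, log scale), with genes ordered by log2 fold change from STC1 to APBA1. Filled points are replicate 1, open points replicate 2 and ticks group means, red for BCE and blue for BAE cells. The genes were picked for groups that do not overlap, as in 77.3% of all genes tested.

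Angiogenic ligands and vascular regulators moved in both directions, with 7 of 14 higher in BCE cells, 6 lower and 1 that did not pass (92.9% past the threshold, against 81.1% of named genes). EFNA1, the ligand of EphA receptors, was higher at 35.8 and 29.9 CPM against 7.5 and 6.81 CPM (log2 fold change 2.19, SE 0.12, adjusted p = 1.88e-08). HIF1A, the oxygen-regulated subunit of hypoxia-inducible factor, had 439.7 and 383 CPM in BCE cells and 204 and 218 CPM in BAE cells, and NDRG1, a gene known to respond to hypoxia, was 2.47-fold higher. TMEM204, TBXAS1 and RGCC were higher by log2 fold changes of 0.89, 0.87 and 0.44. VEGFC, the ligand of VEGF receptor 3, was lower in BCE cells, at 91.7 and 93 CPM against 251 and 241 CPM (log2 fold change -1.41, SE 0.0549, adjusted p = 8.5e-10). Lower too were NTS, the precursor of neurotensin, at -1.58, THSD1, a thrombospondin-domain protein of endothelial cells, at -1.48, DAB2IP at -1.12 and PDGFC at -0.77. THBS2, the angiogenesis inhibitor thrombospondin-2, had 480.0 and 485 CPM in BCE cells and 505 and 531 CPM in BAE cells and did not pass (adjusted p = 0.134).

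The pathway through which LIF acts was examined for its level before LIF was given. LIF binds a receptor made of LIFR and gp130, which activates JAK kinases and STAT3, and SOCS proteins switch the signal off again. Of 31 genes listed for this pathway 8 could be identified, of which 6 were higher in BCE cells, 1 was lower and 1 did not pass. The share past the threshold was 87.5%, near the 81.1% of the named genes, which were all chosen for a LIF response. Their median log2 fold change was 0.64. Neither receptor chain, LIFR nor gp130, was among the 8. SOCS2 differed most, at 37.6 and 35.5 CPM in BCE cells and 6.8 and 7.04 CPM in BAE cells (log2 fold change 2.40, SE 0.102, adjusted p = 1.87e-09). CEBPD and BCL3, transcriptional regulators of the acute-phase response, followed at 1.22 and 1.01. SOCS3, the main inhibitor of gp130 signalling, was at 10.6 and 9.78 CPM in BCE cells and 6.53 and 6.07 CPM in BAE cells, a log2 fold change of 0.69. STAT3 had 218 and 206 CPM in BCE cells and 170.5 and 172 CPM in BAE cells, a 1.24-fold difference. MYC was lower in BCE cells at -0.22, and OSMR, a receptor chain that pairs with gp130, had -0.14 and did not pass (adjusted p = 0.241).

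Among cytokine and death receptors and their ligands 5 of 7 were higher in BCE cells, FAS was lower and 1 did not pass (85.7% past the threshold, against 53.8% of all genes and 81.1% of named genes). Besides IL4R, the co-receptor CD14, also listed as a leukocyte marker, was 3.27-fold higher. It had 19.1 and 20.5 CPM in BCE cells and 5.74 and 6.39 CPM in BAE cells. The TNF receptor TNFRSF1A was 1.47-fold higher, and LTBR was higher by a log2 fold change of 0.24. The call of LTBR was lost without BAE replicate 1. TNFSF18 was higher by a log2 fold change of 1.86, at levels near 5 CPM in BCE cells. IL7R, at 34.6 and 35.1 CPM in BCE cells and 33.5 and 33.3 CPM in BAE cells, did not pass (adjusted p = 0.538).

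Of 5 genes of leukocyte recruitment, 2 were higher and 3 lower in BCE cells, where 81.1% of named genes and 53.8% of all genes passed. ICAM1, which binds leukocyte integrins, had 72.5 and 65.7 CPM in BCE cells and 45.7 and 47.2 CPM in BAE cells. SELP, the selectin on which leukocytes roll and a gene of venous endothelium, had 164 and 137 CPM against 221 and 228 CPM. CHST2, a sulfotransferase that makes selectin ligands, was 2.19-fold higher in BAE cells but did not pass the 2-fold test. The lists of bed-specific endothelial genes held few genes that could be identified. These were CXCR4 of the arterial list and SELP of the venous list, both lower in BCE cells, and MEOX2 and RGCC of the capillary list, both higher. Single genes of a list say nothing of the others on it.

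TGF-beta and BMP signalling genes were higher in 3 of 4 cases, and LRRC32 was one of them. Of all 111 named genes 56 were higher, and of all genes tested 26.2%. Past the threshold were 75% of the 4, against 81.1% of named genes and 53.8% of all genes. So few genes cannot be set apart from the named genes. ID1, an early target of BMP receptors, was at 93.4 and 85.8 CPM in BCE cells and 26.8 and 24.2 CPM in BAE cells (log2 fold change 1.81, SE 0.0812, adjusted p = 3.19e-09), whereas ID3 differed by a log2 fold change of 0.33. BAMBI, a decoy receptor, had 0.29 and did not pass (adjusted p = 0.168). Of the 30 genes of a wider TGF-beta and BMP list 4 were identified, with 2 higher, 1 lower and 1 that did not pass.

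Sterol and lipid genes differed in both directions, 4 higher and 2 lower in BCE cells. The synthesis enzymes HMGCS1 and FDFT1 were higher in BCE cells, at 1.63-fold and 1.27-fold, and so was VLDLR, a lipoprotein receptor, at 1.77-fold. INSIG1, the sterol-sensing retention protein, had 79.5 and 80.8 CPM in BCE cells and 79.2 and 78.3 CPM in BAE cells and did not pass (adjusted p = 0.751). CH25H, which makes an oxysterol that restrains this pathway, was lower in BCE cells, as was LPCAT2, an enzyme of platelet-activating factor synthesis, at a log2 fold change of -1.77. Serum, a source of lipoproteins, was higher in the BCE medium, and its part in these values was not tested.

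Of 25 serum-induced immediate early genes 3 were identified. JUNB was lower in BCE cells, at 110.4 and 95.3 CPM against 148 and 136 CPM (log2 fold change -0.46), as was MYC, and FOSL2 had -0.12 and did not pass (adjusted p = 0.11). The BCE medium held more serum, and its part in the values of these 3 genes was not tested. Of 17 transcription factors and chromatin genes, JUNB and FOSL2 included, 7 were higher and 4 lower. Apart from MEOX2 the differences past 2-fold were those of BCL6B, a repressor of endothelial cells, at 2.82-fold higher, SNAPC1, ETS2 and, lower in BCE cells, ARID5B at a log2 fold change of -1.32.

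Of 8 growth arrest and stress genes, 5 were higher and 3 lower in BCE cells, against 53.8% of all genes past the threshold in either direction. The calls of 2 of them, GADD45G and NUAK2, were lost with the DESeq2 test and in 3 and 2 of the fits with a library left out. Besides PLK2, SOD2 was higher by 0.71 and TNFAIP8L1 by 1.14 on the log2 scale. MT2, assigned to a metallothionein by protein match and not told apart here from its close relatives, had 1028 and 1012 CPM in BCE cells and 668 and 521 CPM in BAE cells. MAP1LC3B, a core autophagy protein, was 1.97-fold higher in BAE cells. Among adhesion, matrix and cytoskeletal genes, 5 were higher and 5 lower. PCDH12, a protocadherin of endothelial cells, had 106 and 119 CPM in BCE cells and 36.4 and 37.9 CPM in BAE cells, while ITGAV, the alpha v integrin subunit, had 266 and 245 CPM against 670.1 and 736 CPM. Transporters and trafficking genes split 5 to 4. SLC29A1, the equilibrative nucleoside transporter, was 2.4-fold higher in BAE cells and SNX18, a sorting nexin, 2.33-fold. RAB11FIP1, an effector of recycling endosomes, was 2.09-fold higher there but did not pass the 2-fold test. Neither did TNFAIP8L1, DAB2IP and BCL3, whose estimates also exceeded 2-fold.

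**Figure D4:**
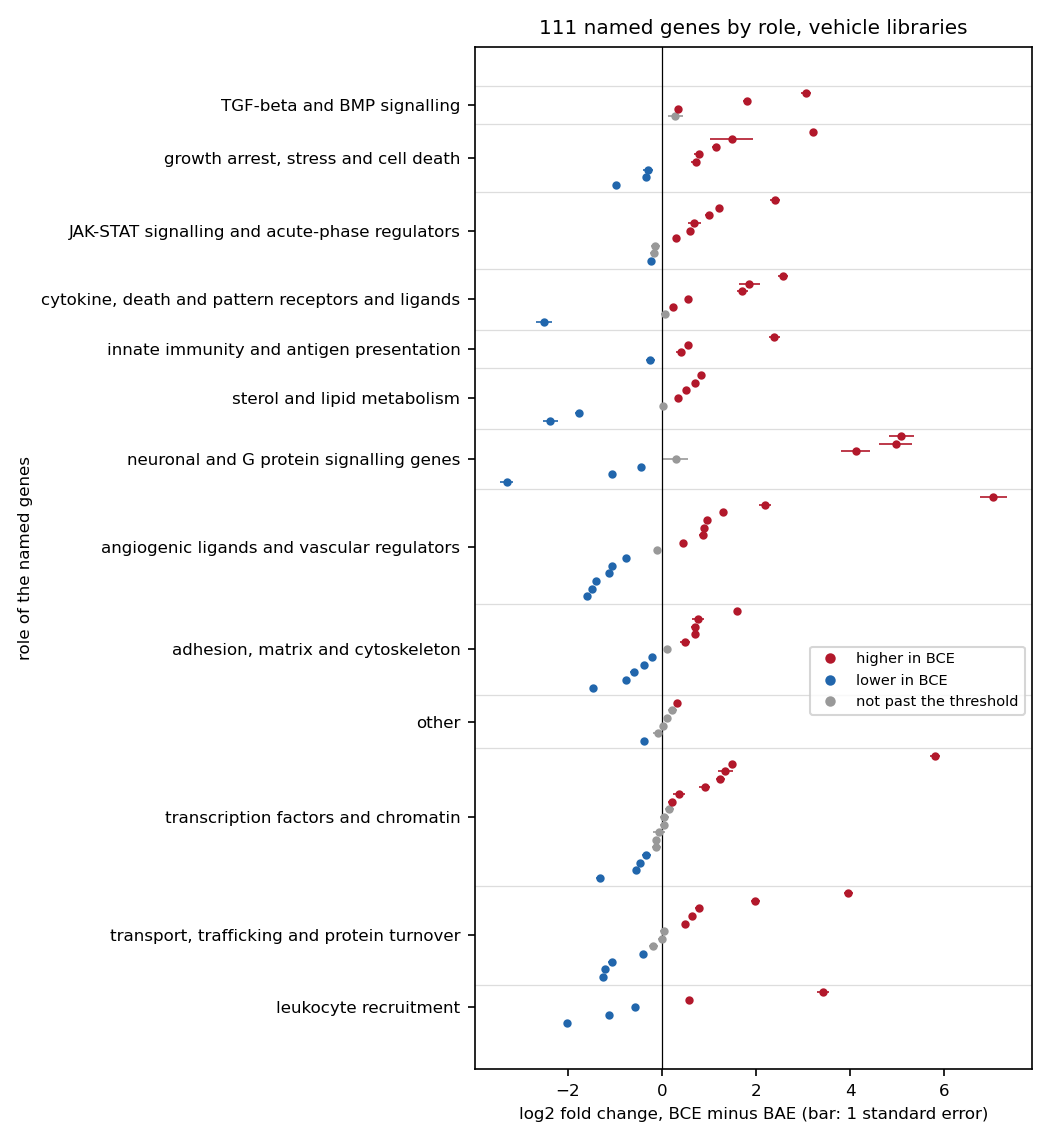
Log2 fold change of BCE minus BAE cells for the 111 named genes (horizontal axis, bars of 1 standard error), grouped by role and with roles ordered by their median. Red points were higher in BCE cells, blue points lower and grey points did not pass; the roles with the highest medians are TGF-beta and BMP signalling at 1.07 and growth arrest, stress and cell death at 0.75.

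The LIF-treated libraries, of which none enters the comparison without LIF, gave a second comparison of the same cell types and media. There 8451 of 13217 genes differed (63.9%) and 1790 did so by the 2-fold test (13.5%). Of the 7090 genes that differed without LIF and were tested in both, 6147 differed in the same direction with LIF (86.7%). Of the 1662 past the 2-fold test without LIF, 1647 differed in the same direction with LIF and 1488 again passed the 2-fold test. MEOX2 had log2 fold changes of 5.81 without LIF and 5.67 with it, CXCR4 -2.01 and -2.01, and PLK2 3.21 and 3.34. These differences between cell types were thus present in both sets of libraries. Opposite calls were rare over all genes, with 59 of 13108 (0.45%), and more frequent among named genes, with 11 of 111. The named genes were chosen by the study for a response to LIF, so that their share is not independent of this outcome.

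**Figure D5:**
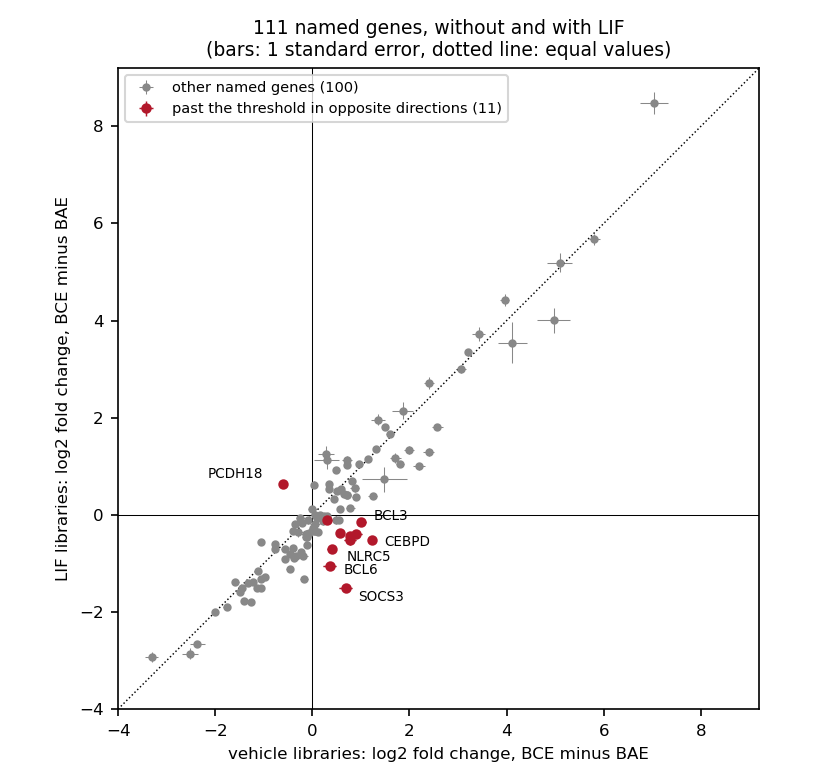
Log2 fold change of BCE minus BAE cells with vehicle (horizontal axis) and with LIF (vertical axis) for the 111 named genes, with bars of 1 standard error and a dotted line of equal values. Red points are the 11 genes past the threshold in opposite directions, 10 of them higher in BCE cells without LIF and lower with it.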

How the data were processed

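Total RNA from vehicle-treated BCE and BAE cells was sequenced as paired-end libraries, 2 of each. The authors aligned reads with TopHat2 (2.0.12) and Bowtie2 (2.2.3) to the bovine genome UMD3.1, counted them per gene with HTSeq (0.6.1) and deposited raw counts for 25889 features in 8 libraries. Whether strand was used and how multimapping reads were treated was not given in the sources used here. Their tables of differential expression, made with DESeq (1.18.0), hold log2 ratios, group means and p-values for LIF contrasts and served only for gene names; the one filed for BAE cells repeats the BCE table.

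Counts were analysed in R (4.3.3) with edgeR (4.0.16): filterByExpr (minimum count 10, total 15), TMM scaling, the quasi-likelihood test, and glmTreat against a log2 fold change of 1, with Benjamini-Hochberg adjustment at 0.05. All adjusted p-values come from these tests. Each comparison was fitted on its own 4 libraries, and its change with LIF as an interaction over 8. Standard errors came from the log2 fold change and F statistic. CPM used TMM-scaled library sizes. Library totals ran from 22354435 to 35269335 counts in the 4 libraries, and floors cover counting error only. The study calls the replicates biological but does not say whether they were cultured on separate days or from separate animals, so p-values measure the spread between these samples. Replicates differed beyond sampling noise, with chi-square per degree of freedom of 10.1 in BCE and 6.19 in BAE cells.

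Symbols for 111 identifiers came from the study's supplementary gene list and, where it gave none, from protein matches in the authors' annotation. The genes named are the 15 largest differences each way with an adjusted p under 0.05, no overlap and at least 5 CPM in the higher group, the 5 of highest level in each cell type, and identified members of gene lists. Of 563 listed genes 34 were identified. The genes and lists were chosen with earlier results of these data known, and other named genes were added to describe roles. Some genes of the rule are not reported here. In simulated data with 200 changed genes, the fit recovered 54.5% of them at a log2 fold change of 0.5 and 98.5% at 2. Far fewer genes changed there than differed between the cell types, so the simulation does not give the error rate here. Alternatives were DESeq2 (1.42.0) size factors and test, other filters, a block for the replicate number, a joint fit of the 8 libraries, and leaving out each library.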

Additional observations from a re-analysis of the deposited data

Results flagged for a closer look

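For 11 named genes the cell types were past the threshold in opposite order in the vehicle-treated and the LIF-treated libraries. Over all genes tested in both sets this held for 0.45%. In each of the 11 the difference also changed between the 2 sets by an interaction term over all 8 libraries (edgeR's quasi-likelihood test). Genes picked for opposite calls could hardly fail that test, so it adds no support. This interaction is the same quantity as the difference between the LIF effects of the cell types, and the genes had been chosen by the study for a response to LIF in BCE cells. SOCS3 had the largest interaction, with -2.21 on the log2 scale. It was at 23.8 and 22.8 CPM in BCE cells and 69.5 and 64.3 CPM in BAE cells with LIF, below BAE cells where it had been above them. CEBPD followed with -1.74, from 86.6 CPM in BCE and 37.1 CPM in BAE cells without LIF to 288 and 308 CPM against 418 and 436 CPM with it. The transcriptional repressor BCL6, whose call without LIF was lost under several alternatives, had -1.40, the aryl hydrocarbon receptor AHR -1.31, the microtubule-associated MTUS1 -1.30, the arrestin-domain protein ARRDC3 -1.21 and BCL3 -1.16. NLRC5, a regulator of MHC class I genes, had -1.10, ICAM1 -0.95 and the RNA helicase DDX21 -0.41. PCDH18, a protocadherin, was the only gene in the other direction, with 1.23: it was 1.52-fold higher in BAE cells without LIF, and 57.4 and 53.9 CPM against 37.3 and 34.7 CPM with LIF. Of these 11, only CEBPD was past the 2-fold test without LIF.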

How the results depend on the processing

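The count of genes that differed was 7223, 7212 with DESeq2 size factors, 6118 with the DESeq2 test, 7686 without a filter, 6360 with at least 10 counts in every library and 7884 with all 8 libraries in one fit. With the replicate number as a block it was 7049, and 1701 by the 2-fold test. The block pairs libraries by the replicate number of their titles, while the library names share only 1 number between the cell types. Libraries paired by title deviated with a correlation of -0.0595, and with crossed numbers of 0.0595. With 2 libraries a side these values mirror each other by construction, so they cannot show whether libraries were pairs. The main fit used no pairs. The 2-fold count of 1732 fell to 1060 with at least 10 counts in every library, a filter that removes genes near 0 in one cell type, and to 1291 with the DESeq2 test. Leaving out each library gave 5454 to 7292 genes, 1449 to 1721 past 2-fold, 7376 to 8020 in the LIF-treated libraries, and 6 to 7 members of the LIF pathway list with a median of 0.59 to 0.68; the cell type left with 1 library was then assumed to vary like the other. The 35 genes named for their difference or level had been picked from these same libraries for passing the threshold without overlap, so their stability is no independent support. Each kept its direction and its call in these fits. Of the 90 named genes called, 80 did so in every alternative. BCL6, whose vehicle call enters the opposite-order genes, lost it with the DESeq2 test, the block and 3 of the 4 libraries left out; TAP2, TEAD4, GADD45G and NUAK2 also lost theirs with the DESeq2 test. Without BAE replicate 1 MYC did not pass, leaving 1 serum-induced gene of 3 called. The median of the 3 junction and adhesion genes, -0.57, was -0.71 and -0.45 without BCE replicate 1 and 2. Directions reversed only in genes that had not passed, all near 0. With a library left out, ELF2 ran from -0.0124 to 0.0898, ENTPD7 from -0.00780 to 0.0885, GRPEL2 from -0.0786 to 0.0616, PCGF6 from -0.0365 to 0.133, SETMAR from -0.152 to 0.0130 and ZCCHC14 from -0.00104 to 0.0427, and GRPEL2 was -0.0115 without a filter. The causes were not tested. The 40 genes at 10 CPM or more in BAE cells and at most 3 counts in BCE libraries became 63 at 10 counts and 20 at 0 counts, and 37 to 50 with a library left out, by limits added after the data were seen. Depth limits genes under 1 CPM, with a median standard error of 0.503. Only 111 genes could be named, and cell type and serum changed together in every library.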
